A study of Mus musculus with 23 samples.

Results

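The 10 genes described here encode the MHC class I antigen presentation machinery and were picked by symbol from the 24475 genes of a mouse liver expression table. They are the class I heavy chains H2-K1 and H2-D1, their light chain B2m, the peptide transporter subunits Tap1 and Tap2, the loading factor Tapbp, the immunoproteasome subunits Psmb8, Psmb9 and Psmb10, and the transactivator Nlrc5. All 10 were in the table. All 10 also passed the filter on low values that 11939 genes passed (at least 0.5 RPKM, a read density per gene length and sequencing depth, in 5 or more libraries), and the lowest value of any of them in any library was 2.01 RPKM, of Nlrc5.

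Livers of male C57BL/6J mice were sequenced in 23 libraries after 4 months on chow or on a high-fat diet (HFD) and 3 weeks of antibody at 10 mg/kg. REGN1193 blocks the glucagon receptor (GCGR) and is called GCGR antibody here. The remaining antibody code, REGN496, is read as the isotype control that the design text mentions without a code. Control antibody was given on chow in libraries 1 to 5 and on HFD in libraries 12 to 17. GCGR antibody was given on chow in libraries 6 to 11 and on HFD in libraries 18 to 23. The labels name no genetic change and no age, and leave unsaid whether every library is a separate mouse, so p-values measure the spread between libraries.

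Hepatocyte genes dominated every library, with a summed level of 55845 to 74896 RPKM over 10 markers such as Alb and Apob. Low RPKM of 70 genes fell on steps worth a single read (98.2% of their values within 5%), which gave relative depths of 0.861 to 1.14. With the lengths of 26 of these genes that have 1 transcript in GENCODE, a typical library corresponded to about 16.2 M reads. At that depth and with its exons in GENCODE, Nlrc5 rested on an estimated 277 to 673 reads per library, and Psmb10 on 369 to 691. Libraries 19 and 20, both HFD with GCGR antibody, correlated least with their own group (mean r = 0.9800 and 0.9789 across genes, against 0.9836 or more elsewhere).

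Class I molecules display peptides of cytosolic proteins to CD8 T cells. The proteasome cuts these proteins, the TAP1 and TAP2 transporter carries the peptides into the endoplasmic reticulum, and tapasin (Tapbp) holds the empty heavy chain with B2m at the transporter until a peptide is bound. Interferons swap the catalytic subunits Psmb5, Psmb6 and Psmb7 of the proteasome for Psmb8, Psmb9 and Psmb10 and raise Nlrc5, a nuclear protein that acts at class I promoters. Hepatocytes carry low class I levels at rest and raise them during inflammation.

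In GRCm38 coordinates, 7 of the 10 genes lie in the MHC on chromosome 17. Psmb9 (34182030 to 34187330), Tap1 (34187556 to 34197225), Psmb8 (34198195 to 34201454) and Tap2 (34204479 to 34216321) stand side by side, with Tapbp (33919478 to 33929290) and H2-K1 (33996012 to 34000619) on one side and H2-D1 (35263094 to 35267497) on the other. B2m is on chromosome 2 (122147687 to 122153082), and Psmb10 (105935728 to 105938392) and Nlrc5 (94434335 to 94527272) are on chromosome 8. Psmb9 and Tap1 are read in opposite directions from starts that are 225 bases apart, so they share an upstream region.

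Class I promoters are known to hold an X2 element with the core TGACG and a Y element with a CCAAT box, through which the factors that recruit NLRC5 bind. RefSeq windows of 250 bases before the gene start (GRCm38.p6) were found for 8 members, all but Tap2 and Nlrc5, and were searched on both strands. CCAAT was in 6 of the 8, against 33.8% of all 32851 windows, and TGACG in 5 of the 8, against 17.8%. A single window was used for each member, whereas the shares over all windows can count a gene more than once. In both counts the matches of Psmb9 and Tap1 are the same sites of their shared region, read on opposite strands and counted for each gene. An exact match to GAAA, any 2 bases, GAAA, taken for the interferon-stimulated response element, was in B2m alone of the 8 (2.98% of all windows). The gamma-activated site TTCNNNGAA was in Psmb8 alone (7.02%). Looser forms of either element were not searched, so their absence from the other windows is not shown. In H2-K1, H2-D1 and B2m the 2 elements had the same spacing, TGACG and then ATTGG with 20 bases between them, an arrangement found in 30 of all windows (0.0913%). This spacing was searched for after the matches had been seen. The 3 promoters that hold it and the region shared by Tap1 and Psmb9 are printed 5′ to 3′ on the strand of the named gene, with matches to the 4 motifs in capitals. For H2-K1 the start used by the table lies inside the annotated span of the gene.
H2-K1 (chr17:34000348-34000597, minus strand): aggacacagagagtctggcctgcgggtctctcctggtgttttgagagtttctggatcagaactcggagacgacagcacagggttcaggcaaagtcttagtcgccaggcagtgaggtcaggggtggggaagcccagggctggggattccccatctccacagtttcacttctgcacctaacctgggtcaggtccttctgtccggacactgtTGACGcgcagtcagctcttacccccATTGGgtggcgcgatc
H2-D1 (chr17:35262844-35263093, plus strand): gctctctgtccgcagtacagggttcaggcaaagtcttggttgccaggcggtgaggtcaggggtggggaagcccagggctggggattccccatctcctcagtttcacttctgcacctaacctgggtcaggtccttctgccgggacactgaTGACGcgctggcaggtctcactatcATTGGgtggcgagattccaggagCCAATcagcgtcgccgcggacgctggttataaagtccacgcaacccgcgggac
B2m (chr2:122147437-122147686, plus strand): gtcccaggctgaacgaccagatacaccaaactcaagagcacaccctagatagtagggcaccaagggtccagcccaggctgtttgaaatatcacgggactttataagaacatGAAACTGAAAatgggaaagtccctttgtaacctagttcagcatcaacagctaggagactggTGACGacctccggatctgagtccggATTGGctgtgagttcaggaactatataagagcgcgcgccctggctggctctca
Tap1 (chr17:34187306-34187555, plus strand): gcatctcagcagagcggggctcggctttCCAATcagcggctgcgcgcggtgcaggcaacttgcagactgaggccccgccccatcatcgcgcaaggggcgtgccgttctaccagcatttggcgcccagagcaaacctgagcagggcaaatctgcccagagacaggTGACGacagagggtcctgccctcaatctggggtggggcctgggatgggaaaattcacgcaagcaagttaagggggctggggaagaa
A match is a description of these letters and does not show that a factor binds there.

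Reads of 33 bases do not separate all class I genes. Of the 33-base windows in GENCODE transcripts of H2-K1, 20.4% also occur in other genes, most often H2-D1, H2-Q10 and H2-Q7, and for H2-D1 the share was 24.4%. The share was 4.45% for Tapbp, 1.21% for Tap2, 0.752% for Tap1 and 0.261% for Psmb8, and 0 for B2m, Psmb9, Psmb10 and Nlrc5. How the authors counted shared reads is not given in the sources used here, so H2-K1, H2-D1 and the H2-Q and H2-T genes are uncertain to that extent.

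The class I transcripts were highest in HFD livers with GCGR antibody. On HFD, 8 of the 10 members were higher with GCGR antibody than with control antibody (limma on log2(RPKM + 1), Benjamini-Hochberg adjusted p under 0.05 over 11939 genes), where 5.33% of all tested genes were higher. None of the 10 was lower, where 2.12% of all genes were. Of all calls 71.5% were higher, against 42.8% after median-ratio scaling and 47.8% after quantile normalization, under which 7 of the 10 members were higher and 0 lower. The log2 fold changes ran from 0.22 (Tap1) to 0.54 (Psmb9), with a median of 0.35 beside 0.048 over all genes. Libraries of both HFD groups did not overlap in 5 members, H2-K1, B2m, Psmb8, Psmb9 and Psmb10, against 2% of all genes that were higher without overlap, and no member was lower without overlap (0.846% of all genes). In whole liver, more RNA per cell and more cells of a type cannot be told apart.

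**Figure D1:**
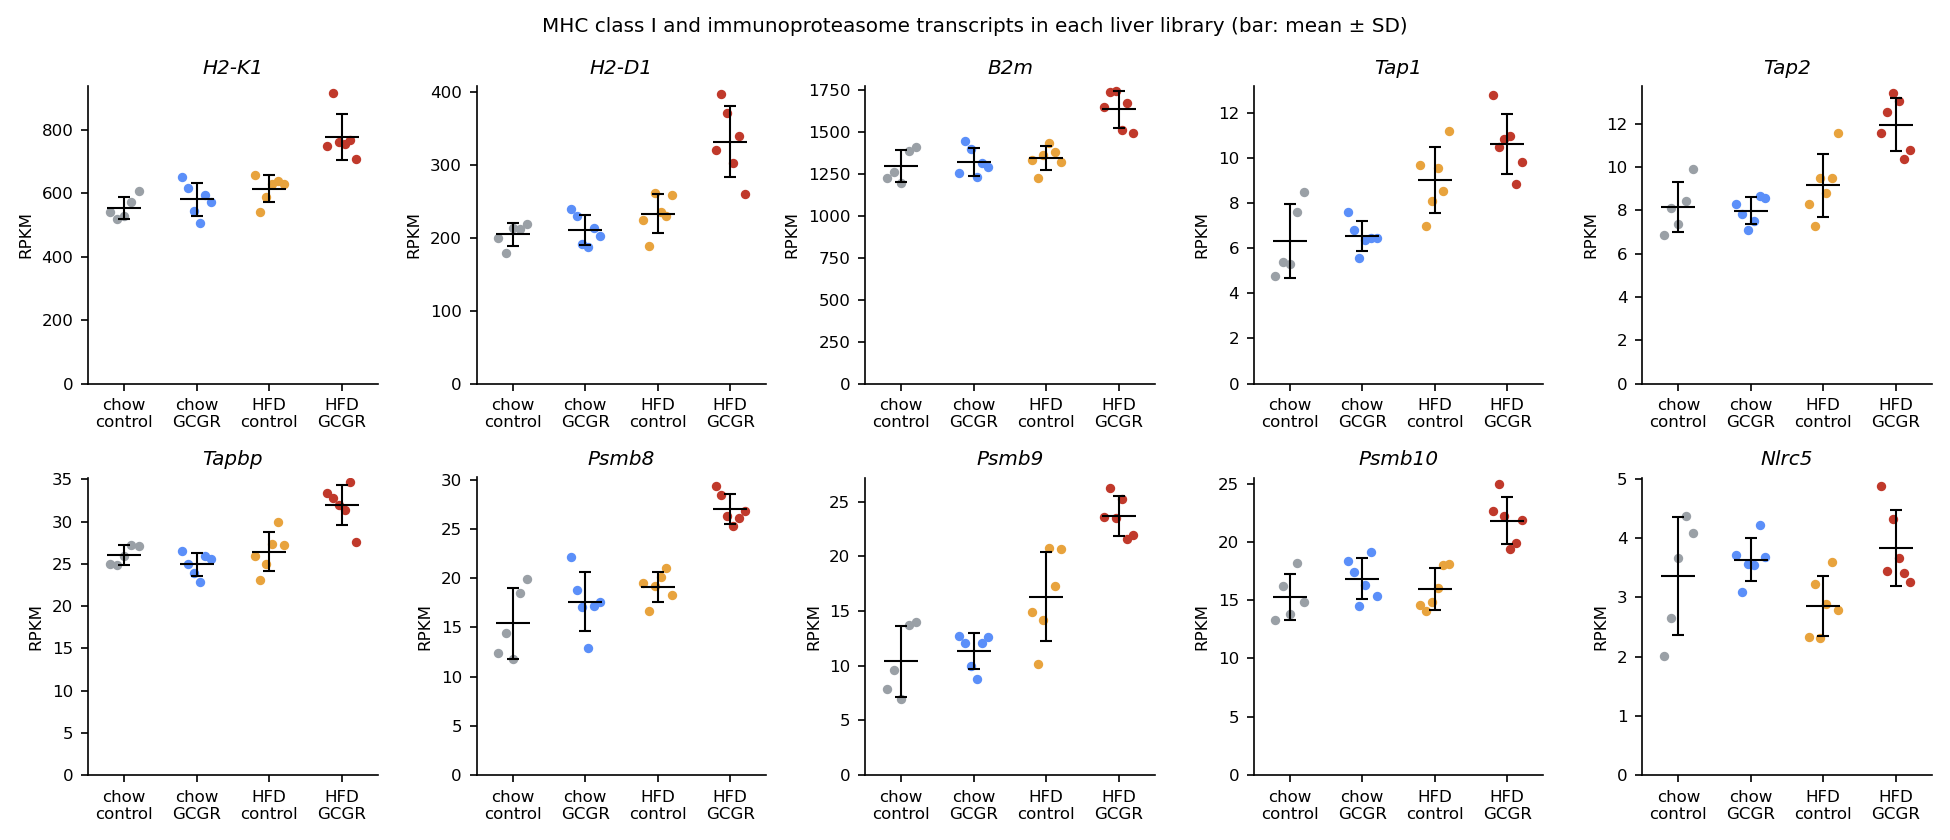
RPKM of the 10 members (vertical axes, from 0) in each of the 23 liver libraries grouped by diet and antibody (horizontal axes); each point is a library and the bar shows the mean ± SD of 5, 6, 6 and 6 libraries. In H2-K1, B2m, Psmb8, Psmb9 and Psmb10 every HFD library with GCGR antibody lies above every HFD library with control antibody.

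The heavy chain H2-K1 was at 542, 517, 529, 574 and 606 RPKM in the 5 chow livers with control antibody. With GCGR antibody it ranged from 507 to 649.9 on chow (median 583). On HFD it ranged from 542 to 658 with control antibody (median 629) and from 707 to 918 with GCGR antibody (median 759). The first 3 groups overlapped one another and the last stood above them. Its HFD means were 614 ± 42.0 and 776 ± 72.6 RPKM (SD, 6 libraries each). H2-K1 rose by 0.34 ± 0.070 on the log2 scale (SE, limma adjusted p = 0.00448).

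H2-D1, the second classical heavy chain of this strain, was at 199, 179, 213, 212 and 219 RPKM with control antibody on chow. Its range was 187 to 239 with GCGR antibody on chow (median 207), 188 to 262 with control antibody on HFD (median 232) and 259 to 397 with GCGR antibody on HFD (median 329.6). Of the last 6 livers 5 lay above every HFD control, and library 23 lay within their range. H2-D1 rose on HFD from 233 ± 26.6 to 331 ± 49.0 RPKM (log2 fold change 0.50 ± 0.095, limma adjusted p = 0.00183).

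B2m, the light chain of all class I molecules, was the most abundant member, at 1228, 1260.2, 1198, 1386 and 1411 RPKM with control antibody on chow. It ranged from 1233 to 1447 with GCGR antibody on chow (median 1303), from 1224 to 1437 with control antibody on HFD (median 1348) and from 1492 to 1748 with GCGR antibody on HFD (median 1663). The HFD livers with GCGR antibody again stood above all others. B2m rose on HFD from 1344 ± 71.8 to 1637 ± 109.9 RPKM (0.28 ± 0.062, limma adjusted p = 0.00681), the smallest relative change of the 3 genes that form the class I molecule.

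Of the 2 transporter subunits, Tap2 rose on HFD and Tap1 did not pass. Tap2 was at 6.86, 8.10, 7.37, 8.44 and 9.89 RPKM with control antibody on chow, at 7.09 to 8.66 with GCGR antibody on chow (median 8.05), at 7.26 to 11.6 with control antibody on HFD (median 9.13) and at 10.4 to 13.4 with GCGR antibody on HFD (median 12.04). The HFD groups overlapped, with 3 of 6 treated livers above the highest control. Its means on HFD were 9.14 ± 1.45 and 11.9 ± 1.24 RPKM (0.36 ± 0.090, limma adjusted p = 0.0163). That call was lost when the fit held the HFD groups alone (adjusted p = 0.0578) and without libraries 19 and 20 together (adjusted p = 0.0562).

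Tap1 was at 4.76, 5.38, 5.31, 7.61 and 8.49 RPKM with control antibody on chow and at 5.57 to 7.58 with GCGR antibody on chow (median 6.45). On HFD it was at 6.99 to 11.2 with control antibody (median 9.04) and at 8.82 to 12.8 with GCGR antibody (median 10.7). Only 1 treated HFD liver lay above the highest HFD control. The antibody effect on HFD was 0.22 ± 0.11 (limma adjusted p = 0.246).

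Tapbp, which encodes tapasin, was at 24.996, 24.9, 25.9, 27.3 and 27.2 RPKM with control antibody on chow. Its range was 22.8 to 26.5 with GCGR antibody on chow (median 25.3), 23.1 to 29.9 with control antibody on HFD (median 26.6) and 27.6 to 34.6 with GCGR antibody on HFD (median 32.3). All treated HFD livers but library 23 lay above the highest HFD control. Tapbp rose on HFD from 26.4 ± 2.32 to 32.0 ± 2.40 RPKM (0.27 ± 0.060, limma adjusted p = 0.00758), a call lost when the fit held the HFD groups alone (adjusted p = 0.0578).

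All 3 immunoproteasome subunits rose with GCGR antibody on HFD. Psmb8, the subunit with chymotrypsin-like activity, was at 12.4, 14.5, 11.8, 18.5 and 19.9 RPKM with control antibody on chow and at 12.9 to 22.2 with GCGR antibody on chow (median 17.4). On HFD it was at 16.7 to 21.1 with control antibody (median 19.4) and at 25.3 to 29.4 with GCGR antibody (median 26.6). The last group stood above all 17 other livers. The mean on HFD rose from 19.2 ± 1.53 to 27.0 ± 1.54 RPKM (0.48 ± 0.11, limma adjusted p = 0.0104).

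Psmb10, which replaces the trypsin-like subunit, had its lowest mean with control antibody on chow. Its values there were 13.3, 16.3, 13.9, 18.2 and 14.9 RPKM, against 14.5 to 19.1 with GCGR antibody on chow (median 16.9), 14.1 to 18.1 with control antibody on HFD (median 15.4) and 19.4 to 24.9 with GCGR antibody on HFD (median 22.05). The treated HFD livers were the highest without overlap. Psmb10 rose on HFD from 15.97 ± 1.77 to 21.8 ± 2.01 RPKM (0.43 ± 0.083, limma adjusted p = 0.00232).

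Psmb9, which replaces the caspase-like subunit, was the member that varied most between livers. It was at 7.91, 9.60, 6.92, 13.7 and 13.96 RPKM with control antibody on chow, at 8.77 to 12.7 with GCGR antibody on chow (median 12.1), at 10.2 to 20.8 with control antibody on HFD (median 16.1) and at 21.6 to 26.3 with GCGR antibody on HFD (median 23.6). The treated HFD livers did not overlap with any other group. Psmb9 rose on HFD from 16.3 ± 4.10 to 23.7 ± 1.80 RPKM (0.54 ± 0.16, limma adjusted p = 0.0363). This call is the least stable of the 8, being lost under 11 of 20 alternatives, among them those without library 12, 13, 14, 18, 20, 21 or 22 (adjusted p up to 0.0777).

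Nlrc5, the transactivator of class I genes, was the least abundant member and did not pass in any comparison. It was at 2.01, 2.65, 3.66, 4.38 and 4.08 RPKM with control antibody on chow, at 3.10 to 4.23 with GCGR antibody on chow (median 3.63), at 2.32 to 3.59 with control antibody on HFD (median 2.84) and at 3.26 to 4.88 with GCGR antibody on HFD (median 3.56). All 4 groups overlapped. Its means on HFD were 2.86 ± 0.50 and 3.83 ± 0.636 RPKM (0.33 ± 0.12, limma adjusted p = 0.0979), and all 6 treated livers lay above the HFD control mean. The diet effect under control antibody was -0.15 ± 0.13 (limma adjusted p = 0.375), so in HFD controls Nlrc5 had its lowest group mean while the other 9 members had means above those of chow controls.

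**Figure D2:**
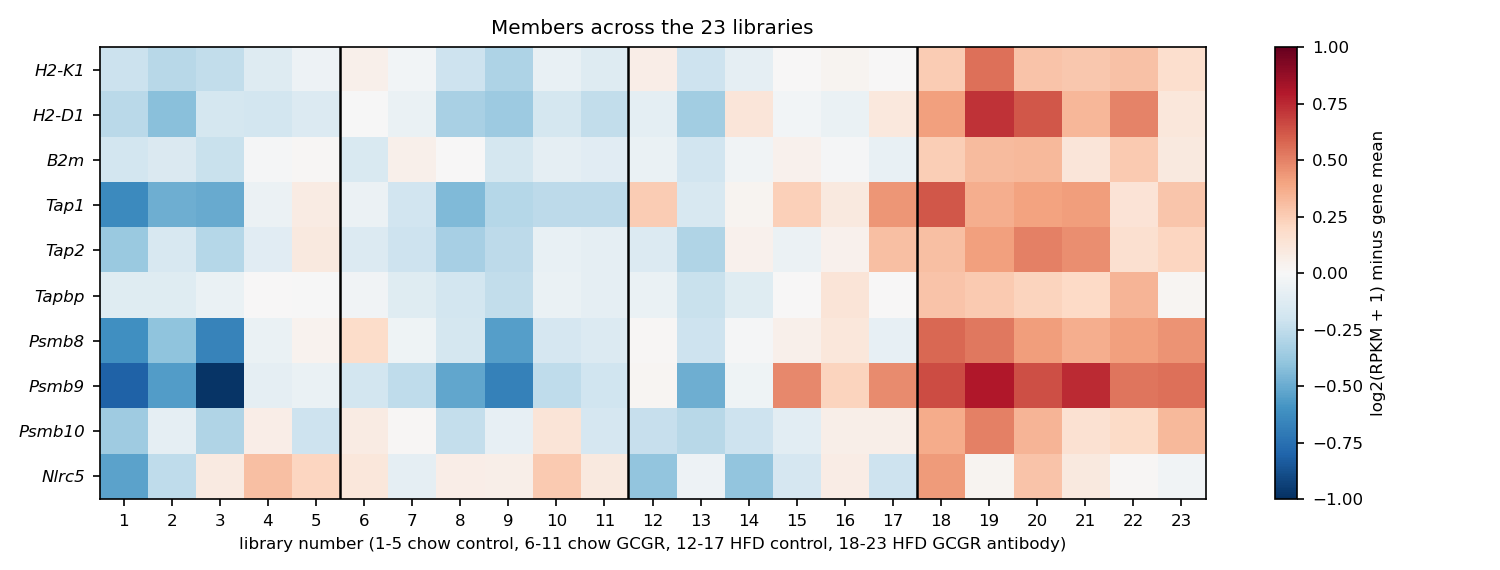
Level of each member (rows) in each library (columns), as log2(RPKM + 1) minus the mean of the gene over 23 libraries, with red above and blue below it; black lines separate the 4 groups. Libraries 18 and 20 hold all 10 members among their 6 highest values, and libraries 1, 2, 3, 9 and 13 hold 7 to 9 members among the 5 lowest.

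The highest values of most members lay in the HFD livers with GCGR antibody. Libraries 18 and 20 had all 10 members among the 6 highest values of the gene, libraries 19 and 21 had 9, and libraries 22 and 23 had 7. No other library had more than 2. The cut of 6 is the size of this group, so the ranks restate the group difference given above. They do not show that the members vary together within the group, and other genes were not ranked in this way. Averaged over the members, the centred log2 level was 0.22 to 0.45 in HFD livers with GCGR antibody and -0.25 to 0.10 in HFD controls. On chow it was -0.29 to -0.016 with GCGR antibody and -0.41 to -0.00092 with control antibody. The mean order of the 4 groups was chow control, chow GCGR, HFD control and HFD GCGR in H2-K1, H2-D1, B2m, Tap1, Psmb8 and Psmb9. Between the first 3 of these groups, neighbouring means differed by less than the larger SD in H2-K1, H2-D1, B2m and Psmb8, whereas in Tap1 and Psmb9 the step from chow GCGR to HFD control exceeded it.

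On chow, none of the 10 members passed between the antibodies (limma), where 0.394% of all genes were higher and 0.553% lower. With shares that small, 0 of 10 does not set the members apart and does not show that they stayed unchanged. No member was higher (1.5% of all genes) or lower (0.997%) without overlap. None had an unadjusted p under 0.05 either, against 1288 of 11939 genes. Log2 fold changes lay between -0.061 (Tapbp) and 0.19 (Psmb8), with SE of 0.063 to 0.16 and a median of 0.067 beside 0.033 over all genes. H2-K1 had means of 554 ± 36.1 and 581 ± 51.1 RPKM (n = 5 and 6) and Psmb8 of 15.4 ± 3.63 and 17.6 ± 2.99 RPKM.

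The antibody effect was larger on HFD than on chow in all 10 members as estimated, but the difference passed in 0 of 10 (limma over 11939 genes, of which 0.126% passed in this direction and 0.0754% in the other). At an unadjusted p under 0.05 it passed in 6, H2-K1, H2-D1, B2m, Tap2, Tapbp and Psmb10, beside 1177 of all genes. The differences lay between 0.15 (Tap1) and 0.46 (H2-D1) on the log2 scale, and Tapbp had the smallest adjusted p, with a difference of 0.33 ± 0.086 (limma adjusted p = 0.142). The effect of the antibody is therefore not shown to depend on diet in any member.

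**Figure D3:**
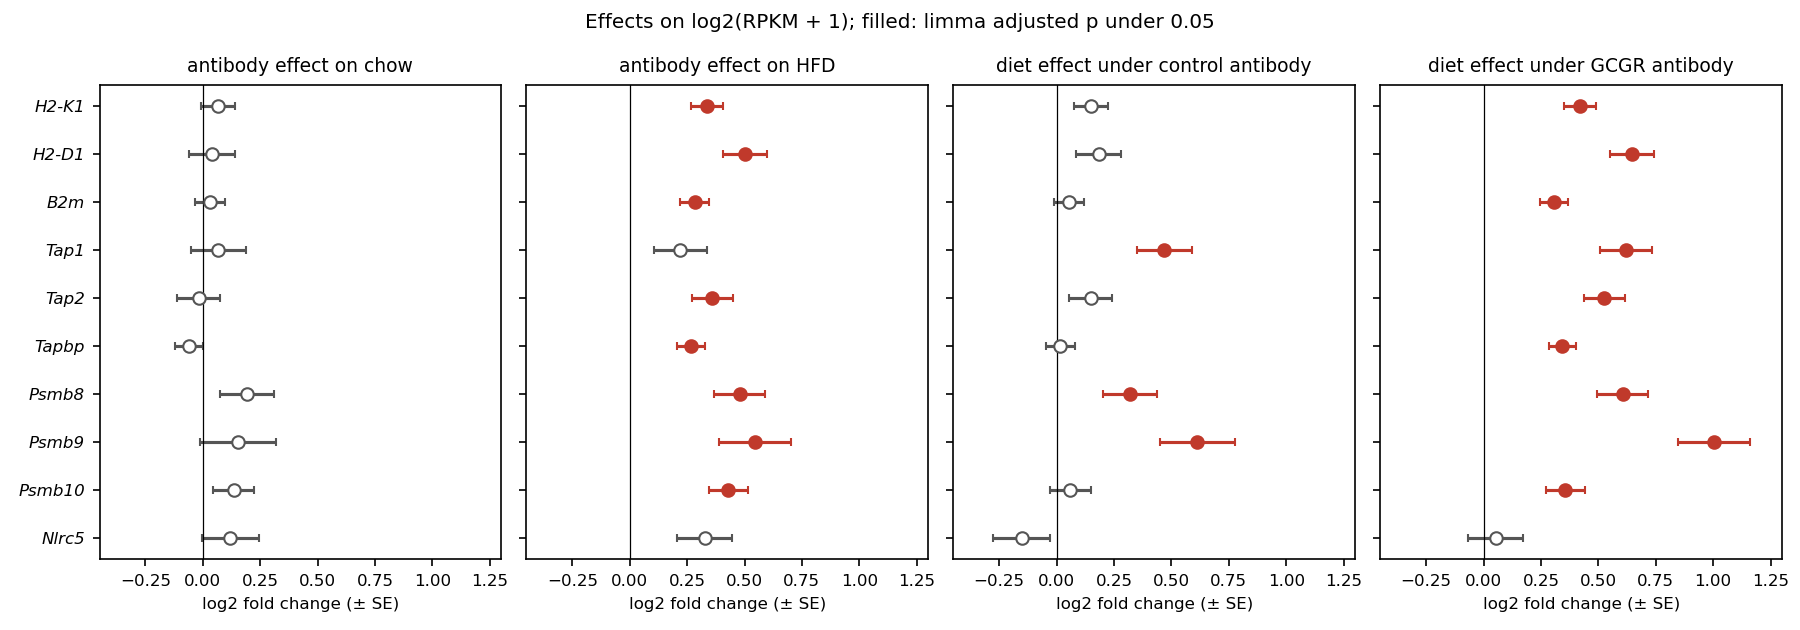
Log2 fold changes of the 10 members (vertical axis) with bars of 1 SE in 4 comparisons, on the log2(RPKM + 1) scale; filled points passed limma's test. The antibody effect on HFD is filled for 8 members and on chow for 0, and the diet effect is filled for 3 under control antibody and 9 under GCGR antibody.

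The diet was also compared within each antibody. Under control antibody, HFD livers were higher than chow livers in 3 of 10 members, where 11.6% of all genes were higher, and lower in none, where 18.3% were lower. Psmb9 rose from 10.4 ± 3.25 to 16.3 ± 4.10 RPKM (0.61 ± 0.16, limma adjusted p = 0.00803) and Tap1 from 6.31 ± 1.64 to 9.01 ± 1.45 RPKM (0.47 ± 0.12, adjusted p = 0.00601). These are the 2 genes that share an upstream region, whose part in these changes was not tested. Psmb8 changed by 0.32 ± 0.12 (adjusted p = 0.0419), a call lost under 11 of 18 alternatives, among them those without library 1, 2, 3, 12, 14, 15, 16 or 17 (adjusted p up to 0.141). The groups overlapped in all 10 members, where 5.49% of all genes were higher and 10.4% lower without overlap. Of all calls 38.9% were higher, against 49.8% after median-ratio scaling.

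The comparison of diets under GCGR antibody, which shares its 6 treated HFD livers with the antibody effect on HFD, gave 9 of 10 members as higher, where 13.2% of all genes were, and 0 as lower, where 16.6% were. The groups of all 9 did not overlap, against 5.15% of all genes higher and 5.1% lower without overlap. Psmb9 was at 11.4 ± 1.63 RPKM on chow and 23.7 ± 1.80 on HFD (1.01 ± 0.16, limma adjusted p = 6.73e-05), H2-D1 at 210.3 ± 20.8 and 331 ± 49.0 (0.65 ± 0.095, adjusted p = 3.42e-05) and Tap1 at 6.54 ± 0.656 and 10.6 ± 1.32 (0.62 ± 0.11, adjusted p = 3.74e-04). The same 9 also passed when treated HFD livers were set against chow livers with control antibody, where 12.8% of all genes were higher and 10.7% lower. Again all 9 did so without overlap, against 6.31% of all genes higher and 5.27% lower. Nlrc5 passed in neither, at 0.053 ± 0.12 and 0.17 ± 0.13 (adjusted p = 0.766 and 0.327).

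Set against the constitutive subunits they replace, the immunoproteasome subunits were higher with GCGR antibody on HFD. The RPKM ratio of Psmb8 to Psmb5 within a library was 0.224 ± 0.0279 in HFD controls and 0.332 ± 0.0412 with GCGR antibody (SD, n = 6 and 6). Psmb9 to Psmb6 was 0.146 ± 0.0414 and 0.232 ± 0.020, and Psmb10 to Psmb7 was 0.148 ± 0.0198 and 0.206 ± 0.0197. In each of the 3 ratios no HFD library of 1 group overlapped the other. The log2 differences were 0.56 ± 0.10, 0.72 ± 0.18 and 0.49 ± 0.096 (SE). Each had an exact two-sided permutation p of 0.00216, the smallest that 924 splits allow, and an adjusted p of 0.00519 over 12 tests (3 ratios in 4 comparisons).

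On chow the same ratios did not pass. Psmb8 to Psmb5 was 0.195 ± 0.0485 with control antibody and 0.211 ± 0.0276 with GCGR antibody, and the exact permutation p of the 3 ratios was 0.426 to 0.519. Between the diets under control antibody the ratios did not pass either, with exact permutation p of 0.0866 for Psmb9 to Psmb6, 0.195 for Psmb8 to Psmb5 and 0.652 for Psmb10 to Psmb7. Under GCGR antibody they were higher on HFD by 0.66 ± 0.11, 1.07 ± 0.098 and 0.35 ± 0.095 on the log2 scale (exact permutation, adjusted p = 0.00519, 0.00519 and 0.0130). None of the denominators passed on HFD (limma), but Psmb6 was at -0.14 ± 0.053 (adjusted p = 0.107) and passed as lower under 2 of 20 alternatives (adjusted p down to 0.0175). A log2 ratio changes by the change of its numerator less that of its denominator. The Psmb6 estimate of -0.14 is thus part of the log2 difference of 0.72 in Psmb9 to Psmb6 on HFD. The levels of Psmb5, Psmb6 and Psmb7 were 86.1 ± 9.31, 113 ± 6.29 and 109 ± 4.71 RPKM in HFD controls and 82.4 ± 9.94, 102 ± 7.85 and 106 ± 3.31 with GCGR antibody. Even so, every immunoproteasome subunit stayed well under its counterpart, with the highest single ratio at 0.395.

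**Figure D4:**
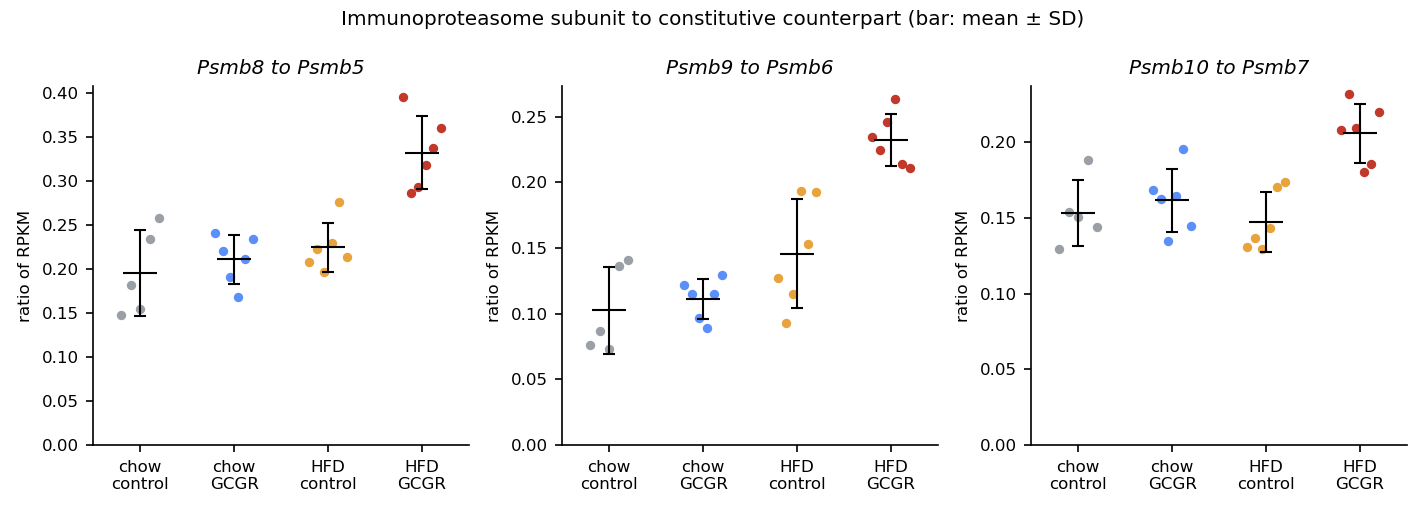
RPKM ratio of each immunoproteasome subunit to the constitutive subunit it replaces (vertical axes, from 0) in each library, grouped by diet and antibody; each point is a library and the bar shows the mean ± SD of 5, 6, 6 and 6 libraries. HFD libraries with GCGR antibody lie at 0.2865 to 0.395, 0.211 to 0.264 and 0.181 to 0.232, above all HFD controls.

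Genes around the members were taken from lists of the pathway, whose counts on HFD stand beside 5.33% of all tested genes higher and 2.12% lower. Of 20 tested class I and class I-like genes outside the members, 9 rose with GCGR antibody on HFD and 0 fell (limma). Median-ratio scaling turned this into 7 and 1, and leaving out libraries 19 and 20 together into 8 and 3. H2-Q7, a non-classical gene, rose from 17.5 ± 0.987 to 34.5 ± 2.71 RPKM (0.94 ± 0.14, adjusted p = 1.87e-04) and H2-T9 from 44.0 ± 4.44 to 64.6 ± 3.24 (0.55 ± 0.074, adjusted p = 6.04e-05). H2-Q9 and H2-T10 were also among the 4 with the smallest p, at 0.93 ± 0.17 and 0.49 ± 0.092. These genes share sequence with H2-K1 and H2-D1 and with one another.

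H2-Q10, the class I gene that hepatocytes express and secrete, was not higher with GCGR antibody on either diet. It was at 1170.5 ± 47.9 and 896 ± 62.4 RPKM on chow with control and GCGR antibody (n = 5 and 6) and fell by 0.39 on the log2 scale (SE 0.092, limma adjusted p = 0.0409). That call was lost under 12 of 18 alternatives (adjusted p up to 0.303). On HFD it was at 1358 ± 159 and 1188 ± 179 RPKM (-0.20 ± 0.087, limma adjusted p = 0.169). Under GCGR antibody H2-Q10 was higher on HFD than on chow without overlap, as 9 of the members were (0.40 ± 0.087, limma adjusted p = 0.00175).

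Constitutive proteasome genes were tested in the same way. None of 14 constitutive 20S subunit genes passed on HFD (limma, 3 at an unadjusted p under 0.05), their median log2 fold change being -0.062. Without libraries 19 and 20 together 2 of them fell. None of 9 genes of proteasome activators and assembly passed either (2 at an unadjusted p under 0.05), but 1 rose without libraries 19 and 20 together. Psme1 and Psme2, which form the interferon-inducible PA28 activator, were at 0.20 ± 0.067 and 0.18 ± 0.057 (limma adjusted p = 0.0720 and 0.0583).

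Of 13 genes of peptide trimming and loading, 1 rose and 1 fell on HFD, beside 5.33% and 2.12% of all tested genes. Erap1, the aminopeptidase that trims peptides in the endoplasmic reticulum, rose from 15.8 ± 1.41 to 21.7 ± 3.92 RPKM (0.42 ± 0.10, limma adjusted p = 0.0133; 0.0628 in the fit of the HFD groups alone). Lap3, a cytosolic aminopeptidase, fell on HFD from 118 ± 2.90 to 95.9 ± 7.81 RPKM (-0.29 ± 0.051, adjusted p = 9.01e-04) and on chow (-0.25 ± 0.054, adjusted p = 0.0215, lost under 3 of 18 alternatives). The general chaperone Calr, which also serves class I loading, was at -0.19 ± 0.090 and did not pass (adjusted p = 0.193).

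Among genes of interferon-gamma signalling and class I transcription, Irf2, an interferon regulatory factor, rose on HFD from 17.9 ± 2.38 to 24.4 ± 4.53 RPKM (0.41 ± 0.10, limma adjusted p = 0.0177), a call lost under 2 of 20 alternatives, one of them the fit of the HFD groups alone. Irf1, which acts at interferon-responsive promoters, was at 11.7 ± 1.82 and 13.3 ± 3.70 RPKM (0.15 ± 0.13, adjusted p = 0.523). Ifng itself was at 0.0908 RPKM or less in every library and was not tested.

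Further interferon-gamma targets were tested as a list, where 5.33% of all tested genes were higher on HFD and 2.12% lower. Of 18, 12 rose on HFD and 0 fell (limma), with a median log2 fold change of 0.73 beside 0.35 for the members, and 7 rose in the fit of the HFD groups alone. Iigp1, an interferon-inducible GTPase, rose from 72.4 ± 13.5 to 135 ± 13.5 RPKM (0.90 ± 0.11, adjusted p = 9.41e-06). Tgtp1, Ifi47 and Irgm1, of the same protein class, rose by 1.63 ± 0.23, 0.93 ± 0.13 and 0.68 ± 0.11. Of 7 MHC class II genes 5 rose, among them H2-Eb1 by 1.08 ± 0.25 (adjusted p = 0.00992), but none in the fit of the HFD groups alone and 2 without libraries 19 and 20 together.

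**Figure D5:**
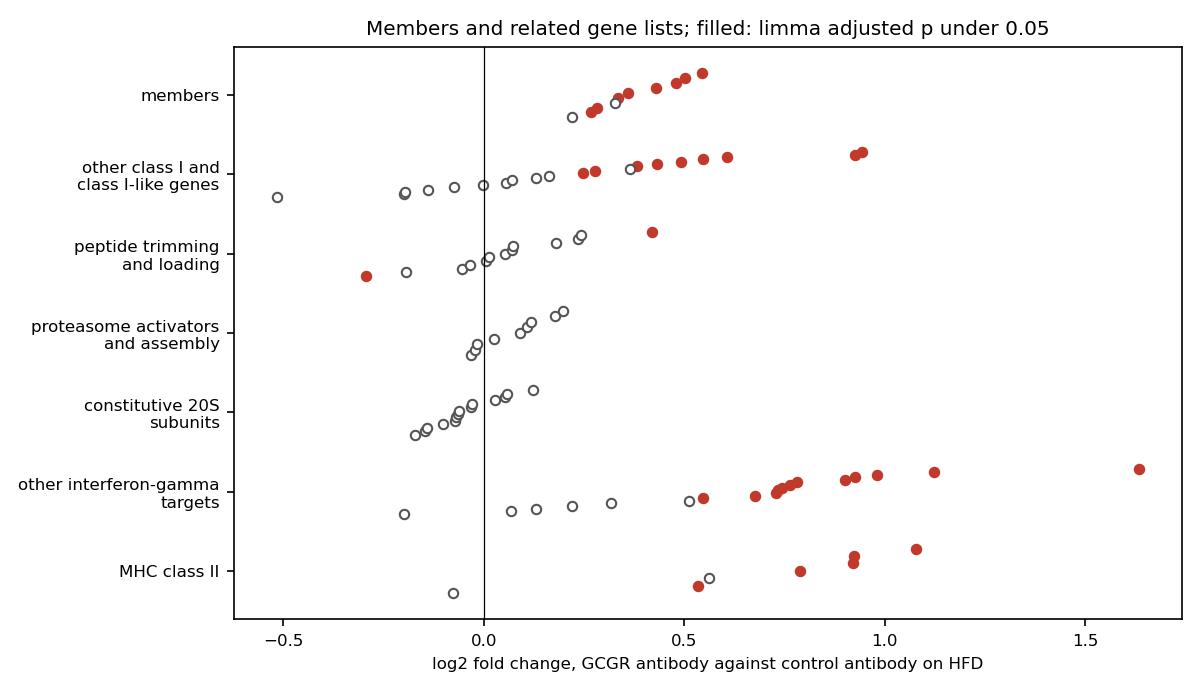
Antibody effect on HFD as log2 fold change (horizontal axis) for the 10 members and 6 lists of related genes (vertical axis), each point 1 gene; filled points passed limma's test. The members lie between 0.22 and 0.54, the constitutive 20S subunits on both sides of 0, and the other interferon-gamma targets reach 1.63.

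The genes outside the members whose profile over the 23 libraries came closest to their mean were sought among 10272 genes with a mean of at least 1 RPKM. Closeness was the root-mean-square difference of centred log2(RPKM + 1). The 8 nearest were H2-Q4, Nmi, Sar1b, AW112010, Trim12c, Bak1, Pomk and Abhd16a, at 0.109 to 0.128. Of the members, H2-K1 was at 0.0831 (rank 1 of the 10272), Nlrc5 at 0.257 (rank 2790) and Psmb9 at 0.294 (rank 5008). Each member is part of the mean it was compared with, which brings it closer. The log2 differences of the 8 nearest genes between both antibodies on HFD were 0.18 (Abhd16a) to 0.57 (AW112010). They are given as a description with no test, since the profile that chose these genes includes these libraries.

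Markers of immune cells, which carry high class I levels, moved beside the members on HFD in part. Of all tested genes 5.33% were higher on HFD and 2.12% lower. Among T and NK cell markers 6 were tested, of which 3 rose (Ccl5, Il2rb, Cd3g) and 1 fell (Zap70, which also fell on chow, by 0.91 on the log2 scale, limma adjusted p = 0.00181). Without a filter on low values 16 were tested, of which 6 rose and 1 fell, while 0 of 5 rose in the fit of the HFD groups alone and 1 of 6 without library 14 or 21. The summed level of all 16 in the table was 13.2 to 16.8 RPKM in HFD controls and 10.8 to 24.97 with GCGR antibody. This sum includes Zap70, which fell, and 14 of the 16 averaged under 1 RPKM in each HFD group. Of 7 pan-leukocyte markers Coro1a, Cd52 and Ptprc rose, none of them in the fit of the HFD groups alone or without libraries 19 and 20 together, with sums of 43.6 to 64.8 and 46.7 to 81.1 RPKM. Of 11 tested macrophage and monocyte markers only Cd14 rose (lost under 14 of 20 alternatives), with sums over 13 genes of 71.9 to 128 and 70.2 to 116 RPKM. None of the tested B cell (2), dendritic cell (2) or neutrophil (3) markers passed (limma, 0 at an unadjusted p under 0.05 in each), but without a filter on low values 1 of 7 dendritic cell markers rose. Their sums were at most 4.02, 3.802 and 19.8 RPKM.

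Of other cell types few markers passed, where 5.33% of all tested genes were higher on HFD and 2.12% lower. Single calls in lists of 8 genes do not set them apart from those shares. Lyve1 rose among 8 endothelial markers (lost under 15 of 20 alternatives) and Lum among 8 stellate cell markers (lost under 2), with stellate sums of 82.5 to 132 and 78.9 to 181 RPKM and endothelial sums of 36.8 to 53.5 and 38.9 to 66.1 RPKM. Alb fell on HFD from 36440.0 ± 3704 to 28129 ± 1579 RPKM (-0.37 ± 0.090, limma adjusted p = 0.0137, lost under 2 of 20 alternatives) and the other 9 hepatocyte markers did not pass, although 4 of the 10 fell without libraries 19 and 20 together, with sums over 10 genes of 63431 to 74896 and 55845 to 63045 RPKM. In each of these lists no gene was at 0 in every library of a group, although 14 of the 16 T and NK cell markers averaged under 1 RPKM in both HFD groups. The part that these cells have in the class I levels was not tested.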

How the data were processed

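Liver RNA of 23 libraries in 4 groups was analysed. Per the labels' protocols, strand-specific KAPA mRNA-Seq libraries were read in single reads of 33 cycles. The submitters' processing notes name GRCm38, FastQC and bcl2fastq 2.17. For the aligner, the counter, its strand setting and the annotation, the sources used here give no name. Gene-level RPKM values were deposited, 1 column per library, and because RPKM are not counts they were given no count model.

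The two-sided test was that of limma 3.58.1 (R 4.3.3) on log2(RPKM + 1), for genes that reached 0.5 RPKM in 5 or more libraries. A model of 4 group means on all 23 libraries (19 residual degrees of freedom) with a mean-variance trend was used, and p values were adjusted by Benjamini-Hochberg over all 11939 genes. Fold changes on this scale understate changes of low genes. The procedure was tested on simulated data whose noise was independent between genes, without shifts that the genes of a library share. Ratios of subunits were tested by exact permutation in Python 3.11.15. Positions and promoters are from RefSeq (GRCm38.p6), where all 10 gene IDs matched, and transcripts from GENCODE M21.

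Members, lists and tests were chosen with earlier results of these data known. All members are named. From each list up to 4 genes with the smallest adjusted p on HFD could be named, with Psmb5, Psmb6, Psmb7, Psme1, Psme2, Irf1 and H2-Q10 and those called on chow. The 8 genes most like the members were named by the stated distance. Ifng was added after its values were seen. One result under this rule is not reported here. Alternatives were another pseudocount, filters, scalings and variance model, fits of the compared groups alone, and left-out libraries.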

Additional observations from a re-analysis of the deposited data

Results flagged for a closer look

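H2-K1 in HFD livers with GCGR antibody had 1 library far from the others. Library 19 was at 918 RPKM and the next highest of the 6 at 767, a gap of 0.715 of the range of the group. Among 52 sets of values checked in this way (10 genes and 3 ratios in 4 groups) this was the only one that stood out, where chance gives about 1 in 20. Without library 19 the antibody effect on H2-K1 on HFD was 0.29 on the log2 scale (limma adjusted p = 0.00628).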

How the results depend on the processing

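The number of members higher with GCGR antibody on HFD was 6 to 8 over 20 alternatives (7 to 8 without single libraries), and under each of them all 10 had positive log2 fold changes. On chow it stayed at 0 over 18 alternatives, in the difference between diets at 0 over 30, in the diet comparison under control antibody at 2 to 3, and under GCGR antibody at 9. Members lower were 0 in all of these. Psmb9 on HFD was lost without a filter on low values (adjusted p = 0.0621), after median-ratio scaling (0.0566), after quantile normalization (0.0547) and without libraries 19 and 20 together (0.0765), as well as without the single libraries given above. Some small effects that passed nowhere changed sign. On chow, H2-D1 was at -0.0078 and B2m at -0.017 after median-ratio scaling, H2-D1 at -0.0069 without library 2, Tap1 at -0.011 and Nlrc5 at -0.0054 without library 1, and Tap2 at 0.047 without library 5 and 0.011 without library 8. The diet effect on Tapbp under control antibody was -0.034 after quantile normalization and -0.019 without library 16, that on Nlrc5 under GCGR antibody -0.0055 without library 18, and that on the Psmb10 to Psmb7 ratio under control antibody 0.021 without library 4, with a range of -0.11 to 0.021 over left-out libraries. Over left-out libraries the ranges were -0.0069 to 0.072 (H2-D1), -0.011 to 0.17 (Tap1), -0.070 to 0.047 (Tap2) and -0.0054 to 0.20 (Nlrc5) on chow, -0.019 to 0.052 for Tapbp and -0.0055 to 0.089 for Nlrc5. The cause was not tested. The 3 ratios stayed called on HFD over 13 alternatives each.

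Over all genes, 636 rose and 253 fell on HFD, against 377 and 503 after median-ratio scaling, 377 and 412 after quantile normalization, 290 and 135 in the fit of the HFD groups alone, 469 fell without libraries 19 and 20 together, and 375 to 1149 rose and 168 to 454 fell without single libraries. The background of 5.33% thus depends on the scaling. On chow 47 rose and 66 fell, against 75 rose in the fit of the chow groups alone, and 21 to 58 rose and 35 to 74 fell without single libraries. For the difference between diets, 15 genes were higher and 9 lower, against 3 to 72 and 2 to 59 over the alternatives, and the share higher was 62.5%, against 41.2% after median-ratio scaling and 33.3% after quantile normalization. No paired analysis was possible because the libraries carry running numbers that no 2 groups share.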

Other observations

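Within the control groups, some libraries stood apart in most members. Among the 5 chow livers with control antibody, libraries 4 and 5 were both above libraries 1, 2 and 3 in 8 of the 10 members. Iigp1 was at 74.9, 75.3 and 75.2 RPKM in libraries 1 to 3 and at 103 and 89.4 in libraries 4 and 5. In 6 of 15 interferon-gamma targets outside class I with a mean of at least 1 RPKM the same 2 libraries were the highest. Among the 6 HFD controls, library 13 was the lowest in 9 of the 10 members and in 4 of these 15 targets. These libraries were singled out after their values were seen, and their relative depths were 1.14, 0.916, 0.861, 1.02 and 1.02 for libraries 1 to 5 and 0.939 for library 13. How many of all tested genes split in the same way was not counted. The members are therefore not shown to differ from other genes in this.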
